A study of Mus musculus with 8 samples.

Results

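Mitosis and chromosome segregation genes were examined in B16-F10 cells, a mouse melanoma line, that had grown on the matrix of smooth muscle cells. The set holds 55 genes named for their known roles in mitosis, all of which were among the 46477 rows of the deposited FPKM table (a level scaled to gene length and library size). Of these, 46 had a mean of at least 0.5 FPKM over the 8 libraries and are described, and 9 lay lower. A mean of at least 1 FPKM, required for testing, was reached by 35 of them among 6917 genes tested in all, so 11 were described without a test. Kif23 lay just inside the lower limit with a mean of 0.687 FPKM and Cdc25c just outside it with 0.423. The set was chosen with earlier results of these data known, so the shares of all genes given below are no independent check on it.

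Smooth muscle cells received siRNA for 72 hours and then spent 72 hours in either of 2 media, which the labels call TCM and SFM. TCM is taken to be the tumor conditioned medium that the title names. After lysis of the smooth muscle cells, untreated B16-F10 cells grew on the washed matrix for 24 hours before their total RNA was taken. The 8 groups, with 1 library each, were TCM siKLF4-siFN (both siRNAs), TCM siFN, TCM siKLF4, TCM siNT, SFM siKLF4-siFN, SFM siFN, SFM siKLF4 and SFM siNT. No condition had a replicate, and the labels do not say whether libraries came from separate cultures, so p-values below measure only the spread between these libraries, which may be technical. Since siRNA went only to the smooth muscle cells, whose RNA was not measured here, no gene of these libraries checks the knockdown.

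Cells enter mitosis when cyclin-dependent kinase 1, bound to cyclins A and B, is activated, and Polo and Aurora kinases then build the spindle. Condensins compact the chromosomes, kinetochores tie them to microtubules, and the spindle checkpoint holds back the anaphase-promoting complex until every chromosome is attached. Most of these genes are transcribed mainly in G2 and mitosis, so their RNA in bulk samples is widely used as a marker of dividing cells. In bulk RNA, fewer cells in these phases and less RNA per cell cannot be told apart.

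Melanocyte genes marked the cells as labelled: 8 of 9 markers had a mean of at least 1 FPKM, and their summed level ranged from 476 FPKM in SFM siFN to 740.2 in SFM siKLF4-siFN. Of 12 smooth muscle markers, only Des and Cald1 reached a mean of 1 FPKM. The sum of the smooth muscle markers was 2.53 to 3.93 FPKM over the libraries, and Acta2 and Myocd were listed at 0 in all 8. Fibroblast markers summed to at most 0.309 FPKM and 4 of 9 were listed at 0, while Cd68, which melanoma cells can also express, made up nearly all of the leukocyte marker sum of at most 4.56 FPKM. Depth, estimated from the step between low FPKM values, was about 11600000 to 23000000 fragments. For TCM siNT it was 13800000, for SFM siKLF4-siFN 12900000 and for SFM siFN 21000000, and these are the libraries where mitosis genes were low. SFM siKLF4-siFN and TCM siKLF4 stood apart from their neighbours in base composition, as described below with the values. TCM siKLF4-siFN and TCM siFN were the closest of the 28 pairs of libraries, with 8.60% of genes and 1 of 35 tested mitosis genes beyond counting noise (two-sided 0.05 level). The same share was 63.6% of genes for the most distant pair, TCM siKLF4-siFN and SFM siKLF4-siFN.

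The mitosis genes split the libraries in the same way almost without exception. For 45 of the 46 genes described, the 3 lowest libraries were SFM siKLF4-siFN, SFM siFN and TCM siNT, and in 43 of these TCM siNT was the highest of that set. Among all genes tested, 16.1% had the same 3 lowest libraries. The remaining gene was Pttg1. Set against SFM siNT, the median ratio of FPKM over the 46 genes was 0.117 in SFM siKLF4-siFN, 0.124 in SFM siFN and 0.311 in TCM siNT, but 1.02 in TCM siKLF4-siFN, 0.999 in TCM siFN, 0.996 in TCM siKLF4 and 0.996 in SFM siKLF4. Single genes spread from 0.00776 to 0.787 in SFM siKLF4-siFN and from 0.0607 to 0.864 in SFM siFN. In TCM siNT the ratios ran from 0.142 to 0.719.

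**Figure D1:**
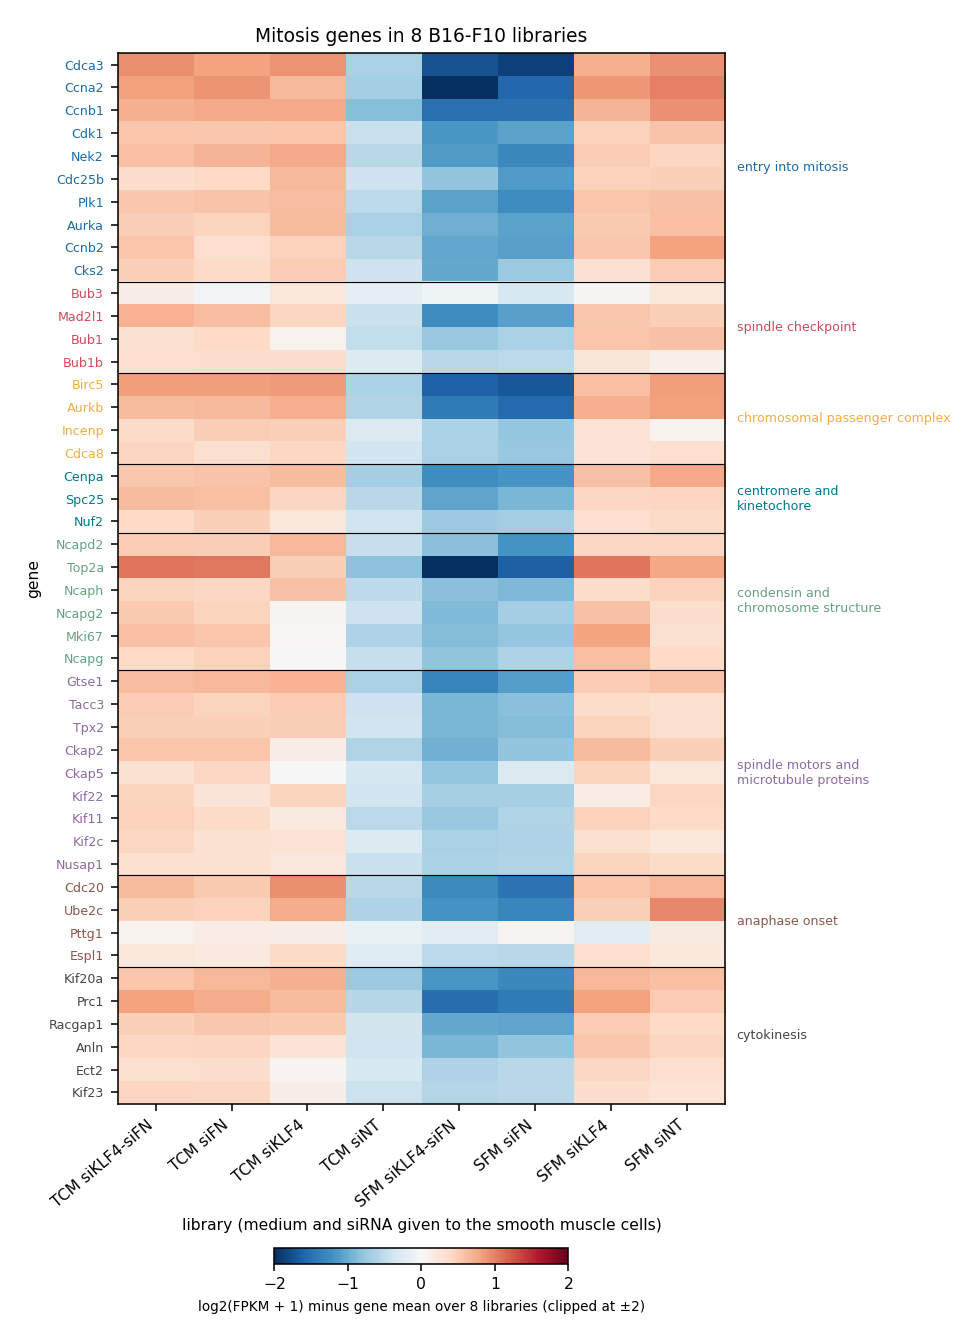
Heat map of log2(FPKM + 1), minus each gene's mean over the 8 libraries, for the 46 mitosis genes described (rows, grouped by role) in the 8 libraries (columns). SFM siKLF4-siFN and SFM siFN are blue in nearly all rows and TCM siNT is pale blue, while Bub3 and Pttg1 stay near white.

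**Figure D2:**
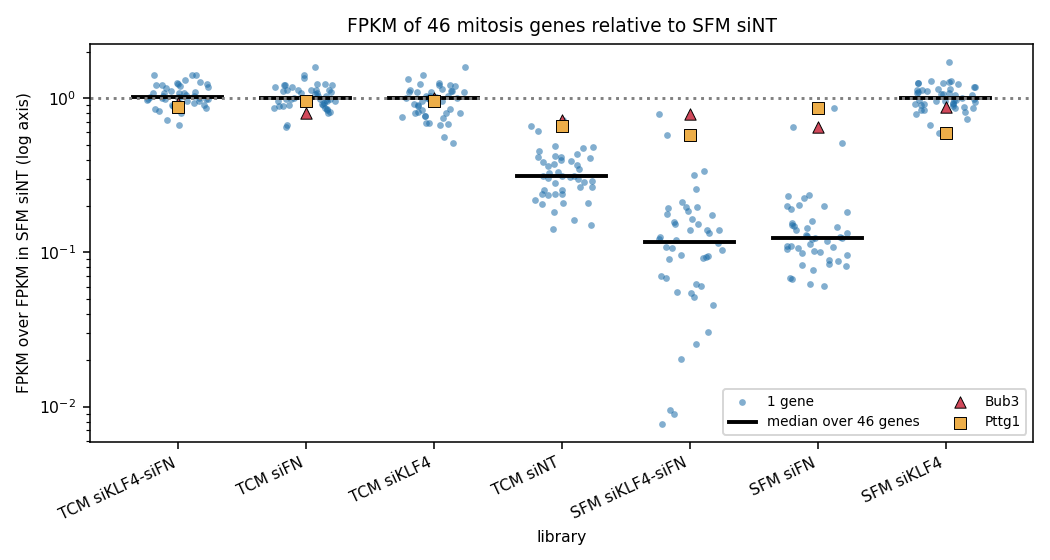
FPKM of each of the 46 genes divided by its FPKM in SFM siNT, on a log axis, for the other libraries (1 point a gene, black bar the median). Medians lie at 0.311 in TCM siNT, 0.117 in SFM siKLF4-siFN and 0.124 in SFM siFN and near 1 elsewhere, with Bub3 (triangle) no lower than 0.650 and Pttg1 (square) no lower than 0.578 in any library.

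The 300 bases around the transcription start (250 before, 50 after) were read from RefSeq on GRCm38.p6 for the 48 members with an entry. Promoters of G2 and mitosis genes are known for CCAAT boxes, bound by NF-Y, and for the cell cycle genes homology region (CHR), bound by the MuvB complex. CCAAT was searched on both strands, as were the CHR form TTTGAA, its variant TTCGAA, its variant TTTAAA and its variant CTTGAA. Of the 48 members, 36 (75%) held CCAAT, against 37.9% of all 27025 promoters, and 24 (50%) held at least 2 copies, against 12.2%. TTTGAA was found in 34 (70.8%) against 18.1% of all promoters, and any of the 4 CHR forms in 41 (85.4%) against 37.6%. TTTAAA was in 22.9% of members against 13.2% of all promoters, and CTTGAA in 12.5% against 13.2%.

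Below are a cyclin with both elements (Ccnb2), a cyclin with another CHR form (Ccnb1), the activator of anaphase (Cdc20) and the member that moved least among well expressed ones (Bub3). The last is a member that moved strongly and whose window held neither element (Mad2l1). All run 5′ to 3′ on GRCm38.p6 with CCAAT and CHR matches in capitals.
Ccnb2 (chr9:70421505-70421804, minus strand): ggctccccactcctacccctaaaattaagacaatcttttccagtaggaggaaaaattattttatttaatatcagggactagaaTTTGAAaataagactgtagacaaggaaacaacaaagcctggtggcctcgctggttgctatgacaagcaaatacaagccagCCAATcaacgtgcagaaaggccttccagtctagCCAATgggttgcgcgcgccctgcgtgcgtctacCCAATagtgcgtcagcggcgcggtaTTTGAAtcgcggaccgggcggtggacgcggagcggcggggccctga
Ccnb1 (chr13:100786437-100786736, minus strand): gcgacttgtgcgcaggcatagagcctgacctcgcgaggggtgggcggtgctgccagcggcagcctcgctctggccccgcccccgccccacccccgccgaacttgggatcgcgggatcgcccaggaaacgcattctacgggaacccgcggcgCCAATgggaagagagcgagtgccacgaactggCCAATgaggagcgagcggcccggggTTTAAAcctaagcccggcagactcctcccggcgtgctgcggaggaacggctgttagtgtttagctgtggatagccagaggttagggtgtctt
Cdc20 (chr4:118437294-118437593, minus strand): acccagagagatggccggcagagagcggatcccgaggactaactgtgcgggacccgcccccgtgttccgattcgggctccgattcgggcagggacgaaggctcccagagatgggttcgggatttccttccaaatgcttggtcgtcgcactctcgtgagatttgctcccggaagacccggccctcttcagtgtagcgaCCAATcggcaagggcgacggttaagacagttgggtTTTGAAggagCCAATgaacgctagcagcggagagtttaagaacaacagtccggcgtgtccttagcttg
Bub3 (chr7:131560120-131560419, plus strand): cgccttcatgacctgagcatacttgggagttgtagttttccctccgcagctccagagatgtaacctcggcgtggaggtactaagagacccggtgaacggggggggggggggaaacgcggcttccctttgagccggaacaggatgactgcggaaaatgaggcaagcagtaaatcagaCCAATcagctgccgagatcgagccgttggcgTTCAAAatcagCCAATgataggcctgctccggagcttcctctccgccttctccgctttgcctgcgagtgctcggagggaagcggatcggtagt
Mad2l1 (chr6:66534971-66535270, plus strand): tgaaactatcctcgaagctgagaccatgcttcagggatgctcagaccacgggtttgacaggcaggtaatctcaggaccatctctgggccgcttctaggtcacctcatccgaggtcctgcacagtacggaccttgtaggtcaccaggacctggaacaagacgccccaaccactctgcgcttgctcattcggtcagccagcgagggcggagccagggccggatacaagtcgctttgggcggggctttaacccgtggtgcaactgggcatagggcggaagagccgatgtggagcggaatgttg

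Ccnb2 held 3 CCAAT boxes and 2 copies of TTTGAA, and Cdc20 held 2 CCAAT boxes and 1 TTTGAA. The Bub3 window has the same elements as that of Cdc20, 2 CCAAT boxes and 1 TTTGAA (read on the other strand as TTCAAA), although Bub3 varied little. No match was found for Mad2l1, Ncaph, Nuf2, Nusap1 or Tacc3, which says only that these letters are not in these windows. Where a member had more than 1 entry (4 members), the first listed was used. The Mad2l1 window ends at 66535270, before the start of the gene in the GENCODE M21 annotation, 66535390. The windows of Cdca8 and Kif2c also lie away from the GENCODE M21 starts of these genes, so other starts were not searched. A match is a description of the sequence, not a binding site. Whether these elements bear on the library differences was not tested, and the shares of all promoters take in genes of any level.

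Gene positions below are on GRCm38 (GENCODE M21). Cdca3 (chr6:124829547-124833701), which promotes mitotic entry through degradation of the inhibitor Wee1, was the most abundant member, with an FPKM of 22.8 in TCM siKLF4-siFN, 20.7 in TCM siFN, 22.2 in TCM siKLF4, 6.96 in TCM siNT, 2.72 in SFM siKLF4-siFN, 2.4 in SFM siFN, 19.3 in SFM siKLF4 and 22.3 in SFM siNT. Ccna2 (chr3:36564865-36572150), which encodes cyclin A2, had an FPKM of 10.9 in TCM siKLF4-siFN, 11.6 in TCM siFN, 9.61 in TCM siKLF4, 3.23 in TCM siNT, 0.706 in SFM siKLF4-siFN, 1.28 in SFM siFN, 11.3 in SFM siKLF4 and 12.7 in SFM siNT. Cyclin B1, encoded by Ccnb1 (chr13:100778650-100786570), had FPKM values of 8.02 in TCM siKLF4-siFN, 8.33 in TCM siFN, 8.3 in TCM siKLF4, 2.04 in TCM siNT, 0.965 in SFM siKLF4-siFN, 0.962 in SFM siFN, 7.83 in SFM siKLF4 and 9.38 in SFM siNT. All of these genes were high in 5 libraries, intermediate in TCM siNT and lowest in SFM siKLF4-siFN and SFM siFN, with no overlap between the SFM libraries with siFN and any other library. Cdk1 itself had 0.778 FPKM in SFM siKLF4-siFN, against 4.49 in SFM siKLF4, and 0.909 in SFM siFN, against 4.95 in SFM siNT. Ccnb2 (its promoter is printed above), Cks2, Cdc25b, a phosphatase that activates Cdk1, and the kinases Plk1, Aurka and Nek2 had means of 1.73 to 3.29 FPKM and the same 3 lowest libraries. Cdc25c, another phosphatase of Cdk1, lay under the limit at 0.0249 to 0.701 FPKM.

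Checkpoint genes differed from each other in how far they ranged. Mad2l1 (chr6:66535390-66547220), which encodes the checkpoint protein MAD2 and whose promoter window above held no match, had an FPKM of 7.67 in TCM siKLF4-siFN, 7.21 in TCM siFN, 6.17 in TCM siKLF4, 2.92 in TCM siNT, 1.26 in SFM siKLF4-siFN, 1.51 in SFM siFN, 6.78 in SFM siKLF4 and 6.43 in SFM siNT. Bub3 (chr7:131560222-131571895), which recruits the checkpoint kinases to kinetochores, stayed between 7.37 FPKM in SFM siFN and 11.3 in SFM siNT and TCM siKLF4, with 10.5 in TCM siKLF4-siFN, 9.12 in TCM siFN, 8.14 in TCM siNT, 8.92 in SFM siKLF4-siFN and 9.90 in SFM siKLF4. Its range over the libraries was 0.56 on the log2(FPKM + 1) scale, against 1.94 for Mad2l1. Its 3 lowest libraries were nevertheless the same as for the rest. The checkpoint kinase gene Bub1 had an FPKM of 1.16 in TCM siKLF4-siFN, 1.3 in TCM siFN, 0.825 in TCM siKLF4, 0.243 in TCM siNT, 0.0325 in SFM siKLF4-siFN, 0.108 in SFM siFN, 1.55 in SFM siKLF4 and 1.61 in SFM siNT. Bub1b, which encodes the checkpoint protein BUBR1, ran from 0.151 FPKM in SFM siKLF4-siFN to 1.15 in TCM siKLF4, with a range of 0.90 on the log2(FPKM + 1) scale, which compresses differences at such low levels. Ttk, the kinase that starts checkpoint signalling, averaged 0.187 FPKM.

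Each member of the chromosomal passenger complex, which corrects faulty attachments and later guides cytokinesis, followed the general order. Birc5 (chr11:117849251-117855743), the gene of survivin, had an FPKM of 11.1 in TCM siKLF4-siFN, 11.1 in TCM siFN, 11.3 in TCM siKLF4, 3.38 in TCM siNT, 1.21 in SFM siKLF4-siFN, 1.1 in SFM siFN, 9.31 in SFM siKLF4 and 11.2 in SFM siNT. Aurkb (chr11:69045647-69051664), its kinase, had an FPKM of 6.33 in TCM siKLF4-siFN, 6.39 in TCM siFN, 6.8 in TCM siKLF4, 2.13 in TCM siNT, 0.792 in SFM siKLF4-siFN, 0.616 in SFM siFN, 6.75 in SFM siKLF4 and 7.39 in SFM siNT. The lowest value among the other 5 libraries was 9.31 FPKM for Birc5 and 6.33 FPKM for Aurkb, both above TCM siNT. Incenp, the scaffold of the complex, had FPKM values of 1.88 in TCM siKLF4-siFN, 2.11 in TCM siFN, 2.09 in TCM siKLF4, 0.808 in TCM siNT, 0.420 in SFM siKLF4-siFN, 0.298 in SFM siFN, 1.67 in SFM siKLF4 and 1.33 in SFM siNT. Cdca8, which encodes borealin, ran from 0.251 FPKM in SFM siFN to 1.84 in TCM siKLF4-siFN.

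Centromere and kinetochore genes were mostly of low level, and 3 of 6 lay under a mean of 0.5 FPKM. Cenpa (chr5:30666777-30674830), the histone H3 variant that marks centromeres, had an FPKM of 3.99 in TCM siKLF4-siFN, 4.08 in TCM siFN, 4.35 in TCM siKLF4, 1.15 in TCM siNT, 0.458 in SFM siKLF4-siFN, 0.525 in SFM siFN, 4.18 in SFM siKLF4 and 4.83 in SFM siNT. Spc25 and Nuf2 encode parts of the Ndc80 complex, the main microtubule anchor of the kinetochore. Spc25 had an FPKM of 2.68 in TCM siKLF4-siFN, 2.58 in TCM siFN, 2.19 in TCM siKLF4, 0.620 in TCM siNT, 0.137 in SFM siKLF4-siFN, 0.259 in SFM siFN, 2.17 in SFM siKLF4 and 2.2 in SFM siNT. For Nuf2 the FPKM was 1.31 in TCM siKLF4-siFN, 1.42 in TCM siFN, 1.02 in TCM siKLF4, 0.317 in TCM siNT, 0.0573 in SFM siKLF4-siFN, 0.0765 in SFM siFN, 1.21 in SFM siKLF4 and 1.26 in SFM siNT. Cenpe, Cenpf and Ndc80, with means of 0.0684, 0.127 and 0.387 FPKM, were also lowest in SFM siKLF4-siFN, at 0.00377, 0.00162 and 0.00250 FPKM, values that stand for less than 1 estimated fragment each.

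Condensin and chromosome structure genes included Top2a, the member with the widest range. Top2a (chr11:98992943-99024189), the topoisomerase that untangles sister chromatids, had an FPKM of 9.12 in TCM siKLF4-siFN, 9.04 in TCM siFN, 5.82 in TCM siKLF4, 1.74 in TCM siNT, 0.187 in SFM siKLF4-siFN, 0.559 in SFM siFN, 9.14 in SFM siKLF4 and 7.29 in SFM siNT. Its range on the log2(FPKM + 1) scale was 3.10, and it was lowest in SFM siKLF4-siFN. Ncapd2, a condensin I subunit, had an FPKM of 7.5 in TCM siKLF4-siFN, 7.39 in TCM siFN, 8.41 in TCM siKLF4, 3.33 in TCM siNT, 2.33 in SFM siKLF4-siFN, 1.62 in SFM siFN, 6.98 in SFM siKLF4 and 6.96 in SFM siNT. Ncaph, which bridges the condensin I ring, had an FPKM of 2.01 in TCM siKLF4-siFN, 1.94 in TCM siFN, 2.31 in TCM siKLF4, 0.539 in TCM siNT, 0.245 in SFM siKLF4-siFN, 0.183 in SFM siFN, 1.85 in SFM siKLF4 and 2.04 in SFM siNT. Ncapd2 kept more of its level than Top2a in the low libraries, and it was lowest in SFM siFN whereas Top2a was lowest in SFM siKLF4-siFN. Ncapg2, of condensin II, had FPKM values of 1.77 in TCM siKLF4-siFN, 1.6 in TCM siFN, 0.992 in TCM siKLF4, 0.442 in TCM siNT, 0.0436 in SFM siKLF4-siFN, 0.201 in SFM siFN, 1.87 in SFM siKLF4 and 1.44 in SFM siNT. Mki67 (chr7:135689784-135716361), which coats mitotic chromosomes and is the usual proliferation marker, had an FPKM of 1.81 in TCM siKLF4-siFN, 1.73 in TCM siFN, 0.883 in TCM siKLF4, 0.208 in TCM siNT, 0.0116 in SFM siKLF4-siFN, 0.0804 in SFM siFN, 2.2 in SFM siKLF4 and 1.28 in SFM siNT. In Mki67 and Ncapg2, unlike Ncapd2 and Ncaph, TCM siKLF4 lay below TCM siKLF4-siFN, TCM siFN and both SFM libraries without siFN. Ncapg ran from 0.0100 FPKM in SFM siKLF4-siFN to 1.65 in SFM siKLF4, and the core subunits Smc2 and Smc4 averaged 0.413 and 0.287 FPKM.

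Spindle motors and microtubule proteins followed the same order at lower levels. Gtse1, a microtubule-binding protein of G2 and S phase cells, had an FPKM of 5.83 in TCM siKLF4-siFN, 6.03 in TCM siFN, 6.19 in TCM siKLF4, 1.84 in TCM siNT, 0.779 in SFM siKLF4-siFN, 1.07 in SFM siFN, 5.34 in SFM siKLF4 and 5.61 in SFM siNT. Tacc3, which crosslinks spindle fibres, had an FPKM of 2.68 in TCM siKLF4-siFN, 2.5 in TCM siFN, 2.67 in TCM siKLF4, 0.938 in TCM siNT, 0.363 in SFM siKLF4-siFN, 0.448 in SFM siFN, 2.34 in SFM siKLF4 and 2.21 in SFM siNT. Tpx2, the activator of Aurora A on the spindle, had FPKM values of 2.36 in TCM siKLF4-siFN, 2.36 in TCM siFN, 2.38 in TCM siKLF4, 0.825 in TCM siNT, 0.281 in SFM siKLF4-siFN, 0.318 in SFM siFN, 2.29 in SFM siKLF4 and 2.0 in SFM siNT. Values of these genes in SFM siKLF4-siFN and SFM siFN lay below those in TCM siNT, which lay below the rest. For Ckap2, a spindle protein, FPKM was 2.17 in TCM siKLF4-siFN, 2.15 in TCM siFN, 1.37 in TCM siKLF4, 0.415 in TCM siNT, 0.109 in SFM siKLF4-siFN, 0.250 in SFM siFN, 2.35 in SFM siKLF4 and 2.0 in SFM siNT. Ckap5, a microtubule polymerase used by cells outside mitosis as well, had 0.847 FPKM in SFM siFN, slightly above its 0.798 in TCM siNT, and 0.327 in SFM siKLF4-siFN. Kif11, the motor that separates spindle poles, ran from 0.0118 FPKM in SFM siKLF4-siFN to 1.35 in TCM siKLF4-siFN. Kif2c, Kif22 and Nusap1, with means of 0.706 to 0.979 FPKM, were also lowest in the SFM libraries with siFN, and Hmmr averaged 0.314 FPKM.

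Among genes of anaphase onset, Cdc20 (chr4:118432901-118437352), which activates the anaphase-promoting complex and whose promoter is printed above, had an FPKM of 10.4 in TCM siKLF4-siFN, 9.54 in TCM siFN, 13.0 in TCM siKLF4, 3.96 in TCM siNT, 2.04 in SFM siKLF4-siFN, 1.62 in SFM siFN, 9.72 in SFM siKLF4 and 10.5 in SFM siNT. Ube2c, the ubiquitin-conjugating enzyme of that complex, had FPKM values of 4.85 in TCM siKLF4-siFN, 4.81 in TCM siFN, 6.01 in TCM siKLF4, 1.73 in TCM siNT, 0.827 in SFM siKLF4-siFN, 0.697 in SFM siFN, 4.82 in SFM siKLF4 and 7.2 in SFM siNT. Pttg1 (chr11:43420250-43426251) encodes securin, the inhibitor of separase, and its FPKM was 1.2 in TCM siKLF4-siFN, 1.32 in TCM siFN, 1.31 in TCM siKLF4, 0.911 in TCM siNT, 0.794 in SFM siKLF4-siFN, 1.19 in SFM siFN, 0.815 in SFM siKLF4 and 1.37 in SFM siNT. Cdc20 and Ube2c were separated by library as the genes above, but Pttg1 was not: its value in SFM siFN lay above that in SFM siKLF4, and its log2 range of 0.40 was the smallest of the 46. The log2(FPKM + 1) scale compresses differences at its low level. As a ratio to SFM siNT, Pttg1 fell to 0.578, below the lowest of Bub3, 0.650. In SFM siKLF4 Pttg1 had only 15.8 estimated fragments. Espl1, the gene of separase itself, ran from 0.115 FPKM in SFM siFN to 1.13 in TCM siKLF4.

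Cytokinesis genes also shared the order. Kif20a, a motor of the central spindle, had an FPKM of 5.81 in TCM siKLF4-siFN, 6.3 in TCM siFN, 6.59 in TCM siKLF4, 1.77 in TCM siNT, 1.07 in SFM siKLF4-siFN, 0.894 in SFM siFN, 6.32 in SFM siKLF4 and 6.06 in SFM siNT. Prc1 (chr7:80294450-80316259), which crosslinks the central spindle, had an FPKM of 6.17 in TCM siKLF4-siFN, 5.9 in TCM siFN, 5.34 in TCM siKLF4, 1.76 in TCM siNT, 0.444 in SFM siKLF4-siFN, 0.549 in SFM siFN, 6.19 in SFM siKLF4 and 4.82 in SFM siNT. Racgap1, which pairs with the motor Kif23 in centralspindlin, had FPKM values of 3.06 in TCM siKLF4-siFN, 3.22 in TCM siFN, 3.19 in TCM siKLF4, 1.25 in TCM siNT, 0.439 in SFM siKLF4-siFN, 0.408 in SFM siFN, 3.13 in SFM siKLF4 and 2.86 in SFM siNT. All of them were lowest in the SFM libraries with siFN, and Kif23 ran likewise from 0.0859 FPKM in SFM siKLF4-siFN to 1.18 in TCM siKLF4-siFN. Anln, a scaffold of the contractile ring, and Ect2, the exchange factor that activates RhoA there, had means of 1.27 and 0.721 FPKM, and Kif20b averaged 0.0499 FPKM.

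The first question is whether siFN altered the gap between TCM and SFM matrix (the media by siFN interaction). Of the 35 members tested, 29 were called with a positive interaction (limma adjusted p under 0.05) and none with a negative one. All 35 estimates lay above 0, as did 3155 of the 6917 over all genes tested. In all 29 the sign of the difference, averaged over the libraries with and without siKLF4, turned. This average lay below 0 (TCM under SFM) without siFN and above 0 with it. Top2a, for example, had a TCM minus SFM difference of 2.89 with siFN and -1.08 without it, and Mki67 had 1.40 and -0.84. None of the differences without siFN passed the test by itself. The single pairs without siFN were unlike: TCM siNT lay below SFM siNT in all 35 members. TCM siKLF4 lay above SFM siKLF4 in 25 members and below it in 10. Among all genes tested the interaction was called positive in 3.83% and negative in 3.34%, 7.17% in all. The median over the 35 members was 2.21 on the log2 scale, against -0.06 over all genes tested. By role, the calls took in 9 of 10 genes of mitotic entry, 1 of 2 of the checkpoint, 3 of 4 of the passenger complex, both of the centromere and kinetochore, 4 of 5 of chromosome structure, 5 of 5 of the spindle, 1 of 3 of anaphase onset and 4 of 4 of cytokinesis. The smallest p belonged to Mki67, at 2.25 ± 0.27 (SE, log2, limma adjusted p = 0.0375). The interaction was 1.90 ± 0.23 for Ncapg2, 3.97 ± 0.51 for Top2a, 2.22 ± 0.30 for Ckap2 and 2.34 ± 0.34 for Mad2l1, each with the same adjusted p in limma. Ube2c (2.38, limma adjusted p = 0.0506), Incenp (1.22, 0.0522), Ncaph (1.68, 0.0522) and Cks2 (1.67, 0.0537) lay just past the threshold of 0.05. Bub3 (0.37 ± 0.25, limma adjusted p = 0.322) and Pttg1 (0.17 ± 0.24, limma adjusted p = 0.627) lay far from it.

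**Figure D3:**
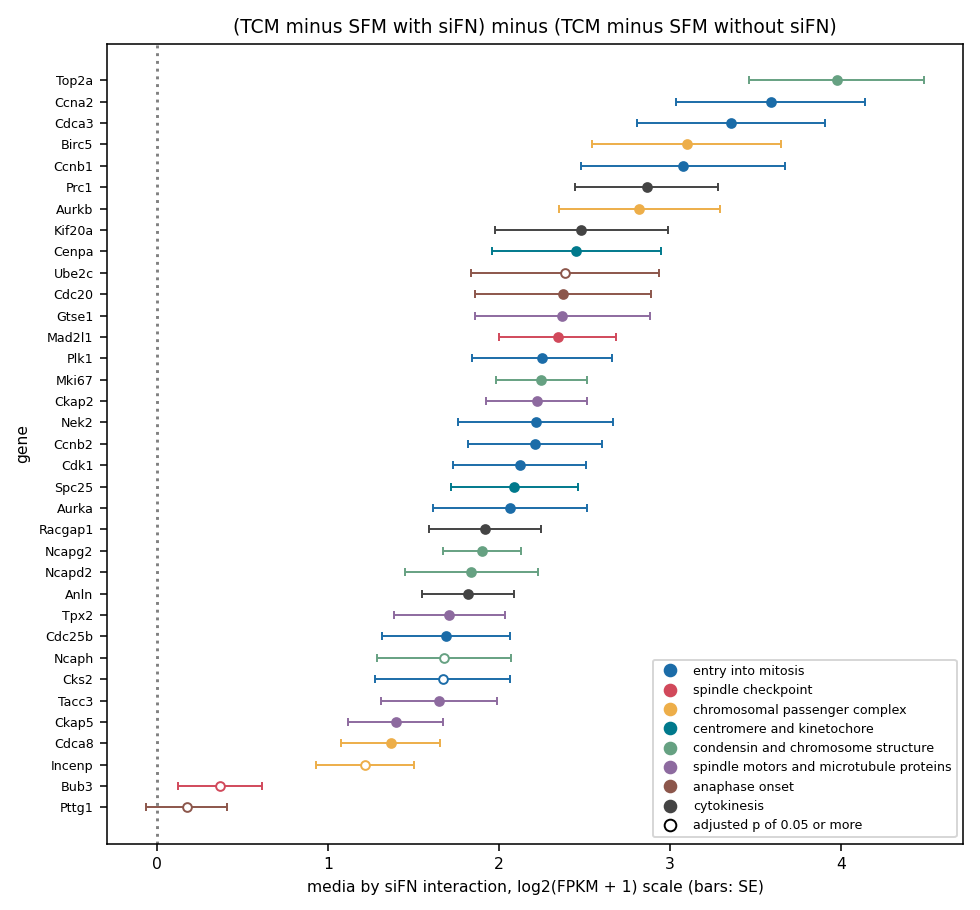
Media by siFN interaction on the log2(FPKM + 1) scale with its SE for the 35 members tested (points coloured by role, open where the adjusted p was 0.05 or more). Values run from 0.17 for Pttg1 to 3.97 for Top2a, and all but Pttg1 and Bub3 exceed 1.

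The call rested on how the libraries stood. TCM siNT and TCM siKLF4 enter the model as a pair without siFN, yet Top2a had 1.74 FPKM in TCM siNT and 5.82 in TCM siKLF4. With 1 library left out, another library stands alone in its group, and calls came and went with the library removed. All calls, of members and of other genes, were lost without TCM siKLF4-siFN, TCM siFN, SFM siKLF4-siFN, SFM siKLF4 or SFM siNT. Without SFM siFN many more of all genes were called, with no rise among the members. The median over the members stayed between 1.64 and 2.65. A pseudocount of 0.1 or no filter on low values gave 0 members called as well, with 0% and 0.0649% of all genes tested called.

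The siFN effect on SFM matrix asks whether siFN in the smooth muscle cells changed the melanoma cells when the medium was SFM. There, limma called 31 of the 35 members lower with siFN and none higher (adjusted p under 0.05). Of all genes tested, 3.76% were called lower and 3.17% higher (6.92% in all). All 35 members lay below 0, as did 3409 of the 6917 genes tested, and the median was -1.59 against 0.01 over all genes tested. The smallest p belonged to Ncapg2 (-1.24 ± 0.16), Top2a (-2.75 ± 0.36), Mki67 (-1.37 ± 0.19), Prc1 (-2.11 ± 0.30) and Ccna2 (-2.72 ± 0.39), each with a limma adjusted p of 0.0331. The floor named above for Mki67 and Ncapg2 applies here too. Ckap5 (-0.87), Incenp (-0.87), Bub3 (-0.35) and Pttg1 (-0.07) did not pass. Side by side, SFM siFN against SFM siNT had a median FPKM ratio of 0.124, lowest in Nuf2 at 0.0607, and SFM siKLF4-siFN against SFM siKLF4 had 0.126, lowest in Mki67 at 0.00525, where the SFM siKLF4-siFN value is 0.0116 FPKM. In each of these pairs 31 of 35 members were lower by at least 1 on the log2 scale, against 2.86% of all genes tested for the siNT pair and 7.27% for the siKLF4 pair (0.795% and 2.6% were higher). All calls, of members and of other genes, were lost when SFM siKLF4-siFN, SFM siKLF4 or SFM siNT was removed. Fewer were made when TCM siKLF4-siFN or TCM siFN was removed, while the median over the members stayed between -1.77 and -1.41. Many more of all genes, but not more members, were called when SFM siFN was removed.

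With siFN, limma called 33 of the 35 members higher on TCM than on SFM matrix (adjusted p under 0.05) and none lower. All 35 lay above 0, as did 3381 of the 6917 genes tested. Among all genes tested 8.41% were called higher and 8.53% lower, 16.9% in all. The median was 1.54, against -0.01 over all genes tested, and Bub3 (0.24) and Pttg1 (0.19) were the members not called. Top2a (2.89 ± 0.36), Ncapg2 (1.26 ± 0.16), Prc1 (2.23 ± 0.30), Mad2l1 (1.82 ± 0.24) and Mki67 (1.40 ± 0.19) had the smallest p, with a limma adjusted p of 0.0243 each. Mki67 and Ncapg2 were again near the floor in SFM siKLF4-siFN. TCM siKLF4-siFN against SFM siKLF4-siFN had a median FPKM ratio of 8.34 over the 46 genes, with 33 of 35 members higher by at least 1 (7.46% of all genes tested, with 2.7% lower), and TCM siFN against SFM siFN had 7.94, with 32 members higher by at least 1 (3.22%, with 1.82% lower). All calls, of members and of other genes, were lost when TCM siKLF4-siFN, TCM siFN or SFM siKLF4-siFN was removed, while the median over the members stayed between 1.40 and 1.74. Removal of SFM siFN again raised the calls over all genes but not those of members. These contrasts and the siFN effect on SFM matrix share the SFM libraries with siFN, so they are not independent of each other.

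Without siFN, the TCM and SFM libraries gave no call, and unlike pairs were averaged. Limma called 0 of 35 members and 0% of all genes tested for TCM against SFM without siFN, with 8 members at an unadjusted p under 0.05 (9.06% of all genes tested) and a median of -0.52. TCM siNT against SFM siNT had a median FPKM ratio of 0.311, lowest in Kif11 at 0.142, and 17 of 35 members were lower by at least 1, against 1.86% of all genes tested (0.564% were higher). TCM siKLF4 against SFM siKLF4 had a ratio of 1.04, with 0 members past 1 in either direction (0.405% of all genes tested were higher and 0.911% lower). Leaving out TCM siNT turned the median to 0.06, and leaving out TCM siKLF4 gave -0.99. For siFN on TCM matrix limma likewise called 0 members (9 at an unadjusted p under 0.05, as for 5.65% of all genes tested, median 0.52) and 0% of all genes tested. TCM siFN was higher than TCM siNT by at least 1 in 19 members, against 1.62% of all genes tested (0.246% were lower), while TCM siKLF4-siFN and TCM siKLF4 differed by that much in 0 members (0.419% of all genes tested were higher and 0.361% lower). The median for siFN on TCM matrix was -0.04 without TCM siNT and 1.10 without TCM siKLF4.

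The siKLF4 pairs compare single libraries and have no replicate check. TCM siKLF4 against TCM siNT had a median FPKM ratio of 3.17, from 1.39 for Bub3 to 5.38 for Kif11, and 20 of 35 members were higher by at least 1, against 1.56% of all genes tested (0.217% were lower). The median ratio was 1.01 for TCM siKLF4-siFN against TCM siFN, 0.864 for SFM siKLF4-siFN against SFM siFN and 0.996 for SFM siKLF4 against SFM siNT, with 0 members past 1 on the log2 scale in these pairs. Of all genes tested, 0.173% were higher and 0.116% lower by that much in the TCM pair with siFN, 0.694% and 2.3% in the SFM pair with siFN, and 0.333% and 0.39% in the SFM pair without it. A gene under 1 FPKM in both libraries cannot differ by 1 on the log2(FPKM + 1) scale. Many members were that low in the SFM pair with siFN, so its count of 0 does not show that siKLF4 made no difference there. FPKM ratios of that pair ran from 0.0705 for Ncapg to 1.76 for Cdc25b over the 46 genes. Limma called 0 of 35 members and 0% of all genes tested for the siKLF4 effect (median 0.25), for the media effect (median 0.53) and for the siFN effect (median -0.56), each averaged over the other factors. At an unadjusted p under 0.05 there were 0 members in each, against 1.21%, 6.71% and 1.21% of all genes tested. With 1 library left out, the median ran from -0.20 to 0.63 for siKLF4, turning negative without TCM siNT, from 0.23 (without SFM siKLF4-siFN) to 1.01 (without TCM siNT) for media, and from -0.98 (without TCM siNT) to -0.20 (without SFM siNT) for siFN. Both interactions that involve siKLF4, with the media and with siFN, gave 0 calls too (0% of all genes tested), with 0 members at an unadjusted p under 0.05 (1.13% and 0.578% of all genes tested) and medians of 0.53 and -0.53. With 1 library left out these medians ran from -0.50 to 1.60 and from -1.55 to 0.50. The first was negative without TCM siNT, SFM siKLF4-siFN or SFM siNT, and the other positive without TCM siFN, TCM siNT or SFM siKLF4-siFN. The residual of these models holds the media by siFN difference of the same genes, so the missing calls do not show that the effects are absent. For siKLF4 the model with the media by siFN term was also fitted, and limma again called 0 of 35 members and 0% of all genes tested.

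Base composition moved with some of the differences among members. Across the 46 genes, Spearman's rho between the GC content of the longest transcript and the difference of log2(FPKM + 1) was 0.65 for SFM siKLF4-siFN against SFM siFN and 0.67 for TCM siKLF4 against SFM siKLF4. Over 6550 genes tested with a known GC content, it was 0.58 and 0.48. For TCM siKLF4-siFN against TCM siKLF4 it was -0.76 over the members and -0.54 over all genes, and for TCM siKLF4-siFN against SFM siKLF4-siFN it was 0.08 and -0.52. Genes are not independent replicates, and each pair is 2 libraries. At the AT-rich end, Ncapg (34.8% GC) had 0.0100 FPKM in SFM siKLF4-siFN and 0.142 in SFM siFN, while at the other end Ncapd2 (54.0%) had 2.33 and 1.62, and Cdc25b (54.2%) 0.971 and 0.551. Mki67 (46.6%) had 0.883 FPKM in TCM siKLF4 and 2.20 in SFM siKLF4, and Cdc20 (55.6%) 13.0 and 9.72. For siFN on SFM matrix the members' rho was small, at -0.24 for SFM siFN against SFM siNT and -0.02 for SFM siKLF4-siFN against SFM siKLF4, where it was 0.16 and 0.53 over all genes. With a trend of GC content and length removed from each library, limma called 33 members for siFN on SFM matrix (10.5% of all genes tested, either direction), 33 for TCM against SFM with siFN (19.9%) and 31 for the interaction (7.62%).

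**Figure D4:**
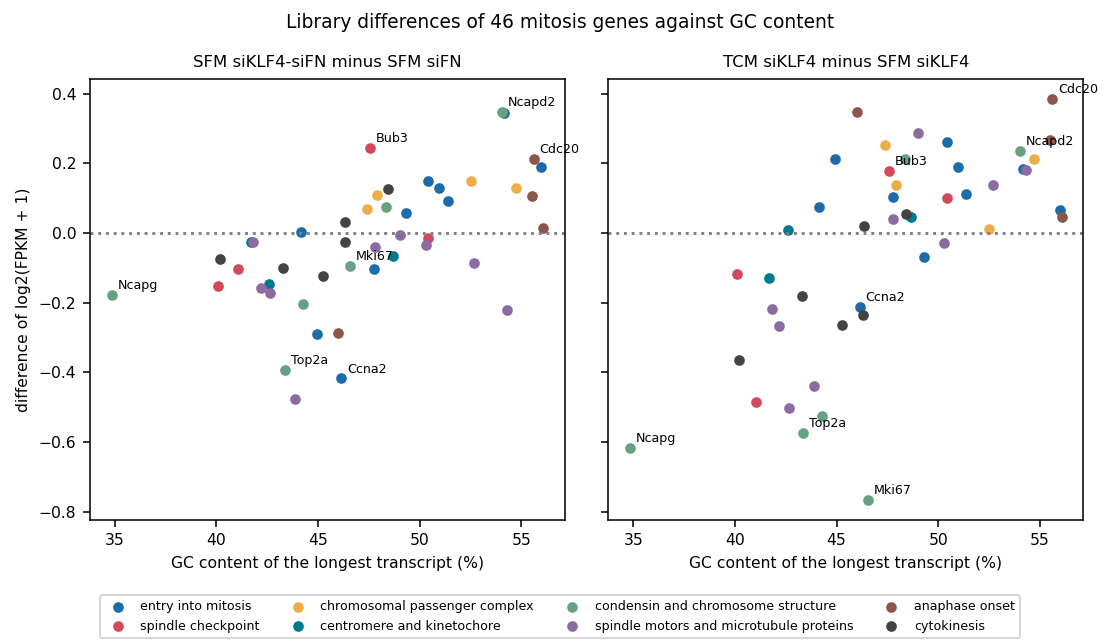
Difference of log2(FPKM + 1) against the GC content of the longest transcript (%) for the 46 genes (points coloured by role), for SFM siKLF4-siFN minus SFM siFN and TCM siKLF4 minus SFM siKLF4. Values rise with GC content in both panels, with rho of 0.65 and 0.67.

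Other genes of the mitotic machinery were counted from lists by role for the media by siFN interaction, which was called positive in 3.83% of all genes tested, with a median of -0.06. Of 30 other kinetochore genes 10 were tested, and 4 had a positive call, with a median of 1.01. They included Cenpw (1.03 ± 0.20, limma adjusted p = 0.0432) and Mis18a, which helps to place CENP-A (1.0 ± 0.19, limma adjusted p = 0.0432). Zwint, a kinetochore protein, stood at 6.66 to 8.02 FPKM in all libraries (0.20 ± 0.18). Hjurp, the chaperone of CENP-A, had 5.99 FPKM in SFM siKLF4-siFN, against 11.2 in SFM siKLF4, but did not pass (1.06 ± 0.27, limma adjusted p = 0.0606).

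Of 7 tested cohesin genes 4 had a positive call (median 1.26), among them Sgol1, which protects centromeric cohesion (1.87 ± 0.30), Cdca5, which encodes sororin (1.40 ± 0.22), and the cohesin subunit Rad21 (1.26 ± 0.28), but the loader subunit Mau2 did not pass (-0.12 ± 0.16). Of 15 tested genes of the anaphase-promoting complex, 1 had a positive call, the inhibitor Fbxo5 (2.05 ± 0.34), which is near the share of all genes, and the median was 0.27. Anapc5, a core subunit, had 8.11 FPKM in SFM siKLF4-siFN, against 7.79 in SFM siKLF4, and 6.67 in SFM siFN, against 7.66 in SFM siNT (0.06 ± 0.19). Ube2s, which extends ubiquitin chains with that complex, had 15.7 and 21.3 FPKM in the SFM libraries with siKLF4, with and without siFN (0.75 ± 0.34, limma adjusted p = 0.166).

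Of 10 tested spindle and cytokinesis genes outside the set 3 had a positive call (median 0.39), among them the motors Kifc1 (2.18 ± 0.45) and Kif18b (1.59 ± 0.34), while Tubg1, gamma tubulin, and the microtubule end protein Mapre1 did not pass (0.52 ± 0.29 and 0.47 ± 0.18). Of 6 other entry genes 2 did (median 0.50), Gsg2, the histone kinase haspin (1.67 ± 0.22), and Pbk, a mitotic kinase (1.5 ± 0.33), but not the phosphatase inhibitor Ensa (0.11 ± 0.21) or Cks1b, the paralog of Cks2 (0.73 ± 0.29). Of 9 tested regulators 2 had a positive call (median 0.39): Foxm1, an activator of G2 and mitosis genes (1.90 ± 0.36), and E2f1, an activator of S phase genes (1.20 ± 0.24). Foxm1 had 1.47 FPKM in SFM siFN, against 6.98 in SFM siNT, and 2.09 in SFM siKLF4-siFN, against 6.59 in SFM siKLF4. Cdkn1a, the kinase inhibitor p21, had 25 FPKM in SFM siFN, against 45.4 in SFM siNT, and did not pass (1.03 ± 0.33, limma adjusted p = 0.0883). Rbbp4, a histone-binding subunit of the MuvB complex, stayed at 5.05 to 5.91 FPKM.

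Low levels limit the precision of these values. In SFM siKLF4-siFN the 46 genes had a median of 14.6 estimated fragments, which gives a counting error of 26.2%, and 18 of them had under 10. The corresponding medians were 23.6 in SFM siFN, 38.0 in TCM siNT and 106 to 191 in the other libraries. Of the 55 genes, 17 share exon bases with another annotated gene, 11 of them with a protein-coding one such as Exosc9 at Ccna2 and Rccd1 at Prc1, and reads from such overlaps cannot be told apart, because how strand was handled is not stated.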

How the data were processed

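RNA sequencing of 8 B16-F10 libraries, 1 per condition, was deposited as FPKM values per gene, which the authors made from reads aligned with STAR 2.4.1d to mm10 and quantified in Partek, per the submitters' processing notes. For strand handling, filters and annotation nothing is stated, and FPKM carries no counts, so depth was only estimated, from the step between low values. Groups came from the labels. Values were taken as log2(FPKM + 1), and genes with a mean of at least 1 FPKM (6917) were tested with limma 3.58.1 in R 4.3.3, with a variance trend, two-sided p-values and Benjamini-Hochberg adjustment over all of them (threshold 0.05). An additive model of media, siKLF4 and siFN leaves 4 residual degrees of freedom, so libraries sharing a level stand in for replicates. Each interaction was tested with its term added, and effects within a medium or siFN level came from the media by siFN model. Single-library pairs carry no p. Genes given in full were the 3 with the highest mean in each role, with a few others fixed by rule. The members and gene lists were chosen with earlier results of these data known. Promoters are RefSeq sequences on GRCm38.p6, and gene GC content came from GENCODE M21. Alternatives tried were another pseudocount, other filters, upper quartile scaling, no variance trend, each library left out, and removal of a GC and length trend, the last chosen after seeing the data.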

Additional observations from a re-analysis of the deposited data

Results flagged for a closer look

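The gap between TCM and SFM libraries differed between those with and without siFN for 29 of the 35 members tested, by limma's test of the interaction itself (adjusted p under 0.05). Among all genes tested, 3.83% had a positive call and 3.34% a negative one, 7.17% in all. In all 29 the sign turned on average over the libraries with and without siKLF4: TCM was above SFM with siFN and below it without siFN. None of the differences without siFN passed limma's test by itself. Without siFN, TCM siNT lay below SFM siNT in all 35 members, but TCM siKLF4 lay below SFM siKLF4 in 10 and above it in 25. On the log2(FPKM + 1) scale the interaction was Mki67 (2.25), Ncapg2 (1.90), Top2a (3.97), Ckap2 (2.22), Mad2l1 (2.34), Prc1 (2.86), Anln (1.82), Ccna2 (3.59), Cdca3 (3.36), Aurkb (2.82). It was Racgap1 (1.92), Ccnb2 (2.21), Birc5 (3.10), Spc25 (2.09), Plk1 (2.25), Cdk1 (2.12), Tpx2 (1.71), Ccnb1 (3.07), Ckap5 (1.39), Cenpa (2.45). For the remaining genes it was Kif20a (2.48), Nek2 (2.21), Tacc3 (1.65), Ncapd2 (1.84), Cdca8 (1.37), Gtse1 (2.37), Cdc20 (2.37), Aurka (2.06), Cdc25b (1.69). SFM siKLF4-siFN and SFM siFN were the lowest libraries for these genes, and TCM siNT lay between them and the rest, except in Ckap5. Its value in SFM siFN (0.847 FPKM) lay slightly above that in TCM siNT (0.798). With a pseudocount of 0.1 no member was called for the interaction, and its calls came and went with the library left out, as given above. The part of depth, base composition and single libraries in the difference was not tested beyond the values given above.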

How the results depend on the processing

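With a pseudocount of 0.1 limma called 0 members for the media by siFN interaction, 32 for TCM against SFM with siFN and 31 for siFN on SFM matrix, and 0%, 12.1% and 4.06% of all genes tested. With no filter on low values, each of these 3 comparisons had 0 members called of 55. The shares of all genes tested were then 0.0649%, 0.0649% and 0.0464%, in the same order. With a mean of at least 5 FPKM each had 7 of the 8 members left called, against 9.66%, 24.1% and 9.97% of all genes tested. Upper quartile scaling and no variance trend kept each count within 1.5 times. A minimum of 0.5 FPKM brought 46 members to the test, so its counts are not over the same genes. It called 25 for the interaction (3.91% of all genes tested), 44 for TCM against SFM with siFN (11.1%) and 36 for siFN on SFM matrix (4.95%). Leaving out each library in turn made the calls of these 3 comparisons come and go, and the lone library is then assumed to vary like the others. A pseudocount of 0.1 also moved the members past 1 on the log2 scale (beside the share of all genes tested) to 1 for TCM siKLF4 against SFM siKLF4 (3.05%), 31 for TCM siNT against SFM siNT (5.49%), 33 for TCM siFN against TCM siNT (4.8%), 32 for TCM siKLF4 against TCM siNT (3.93%) and 3 for SFM siKLF4-siFN against SFM siFN (8.44%). The sign of Pttg1's interaction turned to -0.0314 with the GC and length trend removed, and ran from -0.0899 to 0.435 with libraries left out. The cause was not tested. No paired analysis was possible because each condition has 1 library and the labels give no replicate numbers. Counting error is largest in SFM siKLF4-siFN, where 18 of 46 members had under 10 estimated fragments, although SFM siKLF4 had the lowest estimated depth and 0 such members.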
